A study of Mus musculus with 6 samples.

Results

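Most T cells that leave the thymus are naive, and the chemokine CCL5 is made mainly by memory, effector and innate-like CD8 T cells after they have met antigen or cytokine. PD-1, encoded by Pdcd1, is an inhibitory receptor of activated T cells that also appears during selection in the thymus. The cells described here are thymocytes with CD8 RNA that hold much more Ccl5 RNA than the CD8-positive thymocytes around them. They were chosen by their own RNA counts: a barcode had at least 500 genes, at least 1000 unique molecular identifiers (UMIs, counted RNA molecules) and at most 20% of UMIs from mitochondrial genes. It also held fewer than 5 UMIs of the cycling genes Top2a, Mki67, Birc5, Ccna2, Cdk1 and Ube2c together, at least 1 UMI of Cd8a or Cd8b1, and at least 15 UMIs of Ccl5. The rule took 281 of 1828 CD8-positive non-cycling thymocytes. These cells are called members below, and the other 1547, with Ccl5 under 15, are the comparators. Because Ccl5, Cd8a, Cd8b1 and the cycling genes selected the members, values of those genes only describe the choice.

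The study made single-cell libraries by PIPseq v3 from C57BL/6 mice more than 8 weeks of age. Controls were Pdcd1fl/fl mice without the E8I CD8-Cre transgene, and Pdcd1 cKO mice were Pdcd1fl/fl mice with E8I Cd8a-Cre, which acts in cells that use this Cd8a enhancer. Thymus and spleen at baseline gave 1 library per genotype from 1 mouse each, after negative selection for CD8a-positive T cells. The tumor libraries each came from a pool of 3 mice at day 12 after B16-OVA injection. Each tissue and genotype was thus a single library, so mouse, library and genotype cannot be told apart and no genotype difference was tested. The members come from the thymus, and the spleen and tumor libraries serve to show where the same rule was met elsewhere.

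Over whole libraries, Pdcd1 RNA went against the genotype labels. Filtered thymus barcodes labelled Pdcd1fl/fl held 12 Pdcd1 UMIs, 1.88 CPM (UMIs scaled to a total of 1e6), and those labelled Pdcd1 cKO held 131, at 6.84 CPM. The spleen libraries held 1 and 104 UMIs and the tumor libraries 717 and 808, the latter at 76.4 and 102 CPM, in the same order. Tumor cells that met the rule given above ran with the labels, but were few. The 18 cells labelled Pdcd1fl/fl held 32 Pdcd1 UMIs, at 155.5 CPM (106 to 219.6). The 134 cells labelled Pdcd1 cKO held 136, at 87.1 CPM (73.1 to 103). A 3' count does not show whether the floxed exons were present, and PD-1 protein was not analysed here. The paper reports protein measures that run with the labels. By flow cytometry it found loss of PD-1 in thymic CD8 T cells and PD-1 deficiency in tumor CD8 T cells of Pdcd1 cKO mice. It also found less binding of anti-PD-1 antibody by their splenic CD8 T cells. The libraries are named by their labels throughout. Members labelled Pdcd1fl/fl held 1 Pdcd1 UMI, and those labelled Pdcd1 cKO held 76, at 55.0 CPM (43.3 to 68.8). Comparators of the latter held 3.93 CPM, a log2 ratio of 3.81 (3.16 to 4.50). Ranges after values are exact 95% intervals and cover counting error only.

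Members numbered 32 of the 361 CD8-positive non-cycling thymocytes labelled Pdcd1fl/fl, 8.86% (6.14 to 12.3), and 249 of the 1467 labelled Pdcd1 cKO, 16.97% (15.1 to 18.99). Of all filtered thymocytes these were 2.999% and 9.45%. The cut is in raw UMIs and the second library was deeper, with a median of 4653 UMIs per member against 3287.5. With a cut at 0.3% of the UMIs of the cell, which allows for depth, the shares of filtered thymocytes were 3.94% and 8.99%. Ccl5 per member ran from 15 to 75 with a median of 22 in the library labelled Pdcd1fl/fl, and from 15 to 228 with a median of 41 in the library labelled Pdcd1 cKO. Members held 64.2% and 91.0% of all Ccl5 UMIs of CD8-positive non-cycling thymocytes. As the plot of Ccl5 per cell shows, most CD8-positive thymocytes had 0 to 4 Ccl5 UMIs. In the library labelled Pdcd1 cKO 34 cells held 5 to 9 and 21 held 10 to 14, so the cut did not fall in an empty gap.

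**Figure D1:**
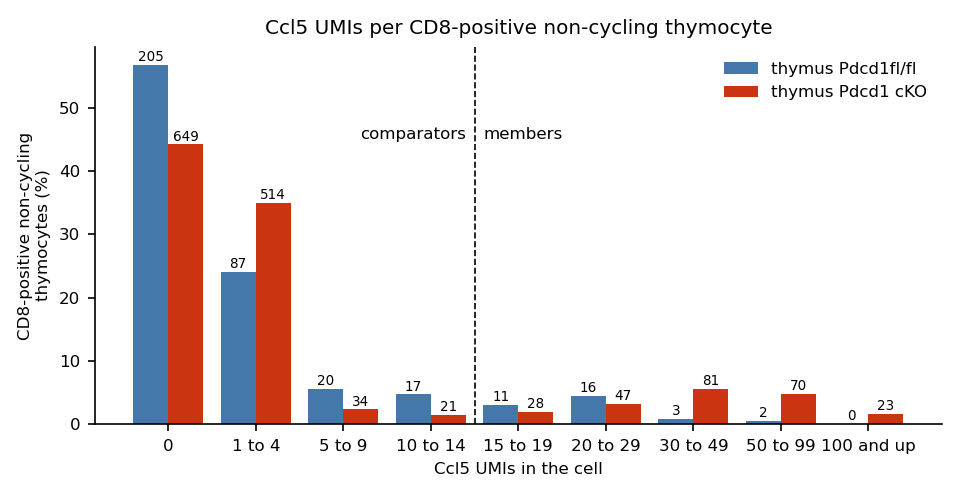
Ccl5 UMIs per CD8-positive non-cycling thymocyte in the libraries labelled Pdcd1fl/fl and Pdcd1 cKO. Bars give the percent of these cells in each bin, numbers above them the cells, and the dashed line the cut at 15 UMIs.

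Cells just inside and just outside the cut were compared without a test. In the library labelled Pdcd1 cKO the 28 cells with 15 to 19 Ccl5 UMIs held S100a6 at 836 CPM (689.9 to 1003), Ly6c2 at 894 CPM and Gzmk at 131 CPM, and the 21 cells with 10 to 14 held 1276 (1071 to 1508), 885 and 65.2 CPM. In the library labelled Pdcd1fl/fl the 11 cells inside had 556, 1455 and 64.2 CPM, and the 17 cells outside had 529, 1336 and 0 CPM. With the label Pdcd1 cKO, S100a4 stood at 153 CPM inside and 186 CPM outside, and Slamf7 at 43.6 and 55.9 CPM. Comparators near the cut thus also held genes that mark members. No member lay above the 95th percentile of UMIs of its library, and no doublet caller was run. No barcode was shared between the thymus libraries.

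The markers that gave the cells the name effector-like were found mainly in the library labelled Pdcd1 cKO. S100a4, a calcium-binding protein of motile and memory cells, had 497 CPM (461 to 536) in members labelled Pdcd1 cKO and 26.8 CPM (23.1 to 31.0) in their comparators, a log2 ratio of 4.21. Gzmk, a granzyme, had 124 against 8.15 CPM, a ratio of 3.93. Ccl3, a chemokine, had 47.8 against 1.31 CPM, a ratio of 5.19, and Slamf7, a SLAM-family receptor, 48.5 against 5.97 CPM, a ratio of 3.02. In the 32 members labelled Pdcd1fl/fl, Ccl3 and Slamf7 had 0 UMIs, Gzmk had 4 in 2 cells and S100a4 had 4 in 4 cells. Other effector genes were present there. Of 7 known effector genes that passed, Ccl5 among them, 4 were at least 2-fold higher and 1 lower, with a median log2 ratio of 1.24. Over all genes of that library 2.84% were higher and 21.2% lower, with a median of -0.35. Nkg7, a granule protein, had 1288 against 492 CPM. Because these 4 markers had 0 to 4 UMIs, the cells of that library are called only Ccl5-high. Cd8a and Cd8b1, which selected both members and comparators, stood at 296 against 290.4 CPM and 674 against 586 CPM in the library labelled Pdcd1 cKO.

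Detection at equal depth gave the same picture. After every cell was thinned to 1000 UMIs, S100a4 was found in 32.9% of members labelled Pdcd1 cKO, in 1.56% of comparators and in 1.12% of 448 non-cycling thymocytes with Dntt and without CD8 RNA, which serve as a gauge of free RNA. The median depths before thinning were 4653, 5233.5 and 5423 UMIs. Gzmk was found in 15.3%, 0.739% and 0.893%, so the comparator shares of these genes lay near those of the gauge cells. The gauge cells are themselves thymocytes, and how much of either share was free RNA was not tested. With the label Pdcd1fl/fl, S100a4 was found in 3.12% of members (1 cell), against 1.14% of the 175 gauge cells with a median of 3516 UMIs, and Gzmk in 0 members. Gzma, another granzyme, was found in 12.9% of members labelled Pdcd1 cKO, in 5.09% of comparators and in 15.2% of gauge cells. As comparators held less than the gauge cells, these cells do not give the level of free RNA for Gzma.

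Of 9006 genes with at least 50 UMIs in members and comparators labelled Pdcd1 cKO, 323 (3.59%) were at least 2-fold higher and 714 (7.93%) at least 2-fold lower in members, with a median log2 ratio over all genes of -0.14. Against 600 mature comparators, which held Ccr7 and no Dntt, Rag1 or Rag2, 7132 genes passed, 323 (4.53%) were higher and 273 (3.83%) lower, with a median of -0.01. Fewer genes were thus lower once immature cells were left out. With the label Pdcd1fl/fl 4609 genes passed, 131 (2.84%) were higher and 979 (21.2%) lower, with a median of -0.35. Its 32 members gave only 122694 UMIs, so a count of 0 is common among them. Of 20 known effector genes 16 were at least 2-fold higher in members labelled Pdcd1 cKO, with a median of 2.87, but this list holds Ccl5, which selected the members. Of 11 known inhibitory receptors 4 were higher, with a median of 0.50. Genes outside these lists are described next.

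The largest ratio outside the known lists was that of Klrc1, which encodes the inhibitory NK receptor NKG2A, with 43.4 CPM (33.1 to 55.9) in members labelled Pdcd1 cKO and 2.04 CPM in comparators, a log2 ratio of 4.41 (3.56 to 5.37). It had 2 UMIs in members labelled Pdcd1fl/fl. The related receptor gene Klre1 stood at 54.3 against 5.82 CPM, a ratio of 3.22. Of 9 killer lectin-like receptor genes that passed, from a list of 16, 7 were at least 2-fold higher and none lower, with a median of 2.50. Klrd1, the partner chain of NKG2A, was the most abundant of those 7, with 222 against 59.0 CPM in the library labelled Pdcd1 cKO and 163 against 60.5 CPM in the other. Klrk1, which encodes the activating receptor NKG2D, had 91.2 against 16.2 CPM and 114 against 11.4 CPM. Klrd1 was thus higher in members of both libraries, while Klrk1, with 14 and 17 UMIs, did not reach 50 UMIs in the library labelled Pdcd1fl/fl. Klrc1 lies at chr6:129642978-129655936 on the minus strand of GRCm39, 67.2 kb from Klrd1, and Klrd1 lies 5.89 kb from Klre1.

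S100a6, the neighbor of S100a4, was the most abundant of the 15 genes with the largest ratios. It had 1079 CPM (1025 to 1135) in members labelled Pdcd1 cKO and 90.8 CPM in comparators, and 685 against 104.9 CPM in the library labelled Pdcd1fl/fl, log2 ratios of 3.57 and 2.71. The gene pair thus parted between libraries: S100a6 was higher in members of both, while S100a4 had 32.6 CPM in members labelled Pdcd1fl/fl. S100a4 at chr3:90511074-90513354 and S100a6 at chr3:90520140-90535843 share the plus strand and lie 6.79 kb apart. Of 15 S100, annexin and galectin genes that passed (list of 20), 6 were higher and none lower, with a median of 0.88. Ahnak, a large scaffold protein that binds S100A10 and annexin A2, had 209 against 53.7 CPM, and Lgals3, a galectin, 31.8 against 5.82 CPM. Crip1, the most abundant gene of the list, did not differ, with 1344 against 1377 CPM.

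Chemokine receptor genes differed between members and comparators in both directions. Cxcr6 had 130.3 CPM (112 to 151) in members labelled Pdcd1 cKO and 11.5 CPM in comparators, a log2 ratio of 3.50. Cxcr3, the receptor for interferon-induced chemokines, had 63.0 against 6.84 CPM. In members labelled Pdcd1fl/fl each of these genes had 4 UMIs. Of 14 chemokine and lipid receptor genes that passed (list of 20), 7 were higher and none lower, with a median of 0.92. That list leaves out Ccr9 and Ccr7, which stood in the naive and egress list and were lower. Ccr9, the receptor for the thymic and gut chemokine CCL25, had 14.5 CPM (8.84 to 22.4) in members and 136 CPM in comparators, a ratio of -3.23, and 2 UMIs against 76.0 CPM in the library labelled Pdcd1fl/fl. Ccr9 and Cxcr6 are neighbors, at chr9:123507181-123613395 and chr9:123635534-123640825 on the plus strand, with 22.1 kb between them, and their ratios had opposite signs.

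The other genes of the upper end are less usual in accounts of CD8 T cells. Osgin1, an oxidative stress response gene, had 47.8 CPM in members labelled Pdcd1 cKO and 3.35 CPM in comparators, a log2 ratio of 3.83. Camk2n1, an inhibitor of the kinase CaMKII, had 39.1 against 3.06 CPM, and Dapk2, a calmodulin-regulated kinase, 36.9 against 3.06 CPM. Hip1, an endocytic adaptor, had 45.6 against 4.22 CPM. None of these had more than 1 UMI in members labelled Pdcd1fl/fl. Serpina3g, a protease inhibitor of activated T cells, had 55.7 against 5.24 CPM. Wdr95, a WD-repeat gene, and 2900026A02Rik, a gene of unknown function, had 28.2 against 2.77 CPM and 35.5 against 3.49 CPM. Sema6d, a semaphorin, had a ratio of 3.22, but 67.2% of its member UMIs came from 1 cell.

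**Figure D2:**
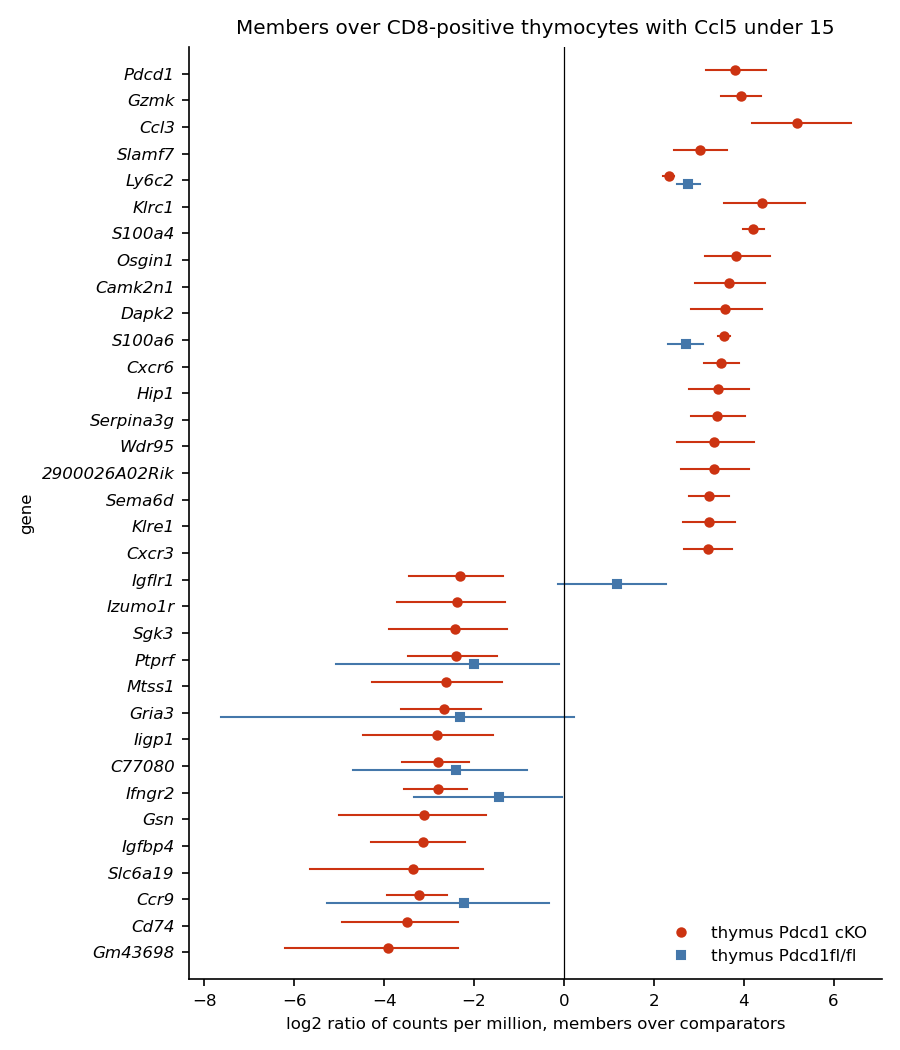
Log2 ratio of CPM, members over comparators, with exact 95% counting intervals. Shown are Pdcd1, markers, Ly6c2 and genes with the largest and smallest ratios in the library labelled Pdcd1 cKO. Squares are drawn where the library labelled Pdcd1fl/fl had at least 50 UMIs and a member count above 0.

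The genes with the smallest ratios were of several kinds. Cd74, the MHC class II invariant chain, had 4.34 CPM in members labelled Pdcd1 cKO and 48.6 CPM in comparators, a log2 ratio of -3.49, and 0 against 22.2 CPM in the library labelled Pdcd1fl/fl. Igfbp4, a binding protein of insulin-like growth factors and a mark of naive CD8 T cells, had 6.51 against 57.7 CPM, a ratio of -3.15, and 0 UMIs against 67.2 CPM in the library labelled Pdcd1fl/fl, a log2 ratio of -1.46 or lower. Ifngr2, the signaling chain of the interferon gamma receptor, had 13.7 against 96.5 CPM and 32.6 against 88.1 CPM, ratios of -2.81 and -1.43. The ligand chain Ifngr1 did not follow, with 274 against 197 CPM in the library labelled Pdcd1 cKO. Iigp1, an interferon-induced GTPase, had 3.62 against 25.8 CPM, and of 26 interferon-stimulated genes that passed 2 were at least 2-fold lower, near the 7.93% of all genes, and 1 was higher, with a median of -0.33. The higher one was Ifit3, with 36.2 against 12.96 CPM.

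The remaining low genes fall into those shared with mature comparators and those that were not. Ptprf, a receptor phosphatase, and C77080 had 7.24 against 38.1 CPM and 12.3 against 86.3 CPM, but only 12.5 and 28.7 CPM in mature comparators, so much of their ratio lay with immature cells. Gsn, an actin-severing protein, had 2.89 CPM in members and 32.3 CPM in mature comparators, and the neutral amino acid transporter Slc6a19 had 2.17 and 28.1 CPM. Both remained low against mature cells, as did Gm43698, a gene without a known function, with 2.17 and 44.5 CPM. Gria3, a glutamate receptor subunit, had 8.68 CPM in members against 54.6 CPM in mature cells. Mtss1, a membrane-bending protein, had 3.62 against 19.8 CPM, and Sgk3, a survival kinase, 4.34 against 20.7 CPM. Izumo1r, the folate receptor of regulatory T cells, had 5.07 against 31.4 CPM. Igflr1, a receptor of the TNF receptor family, was low in members labelled Pdcd1 cKO, with 6.51 against 32.3 CPM in all comparators, but had 65.2 against 28.9 CPM in the library labelled Pdcd1fl/fl, a ratio of 1.17 (-0.13 to 2.28).

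Some immature and some naive genes were lower in members labelled Pdcd1 cKO. Of 11 immature thymocyte genes that passed (list of 14), 6 were at least 2-fold lower and none higher, with a median log2 ratio of -1.14. This count depended on the rule, as 2 were lower with CD8 at least 3, and Ccr9, the lowest, is also in the naive and egress list. Dntt, the DNA polymerase of receptor rearrangement, had 88.3 against 174.6 CPM, with 20.5% of its member UMIs from 1 cell. After thinning it was found in 8.84% of members and 49.1% of the gauge cells, which were chosen by Dntt. Of 17 naive and egress genes, 6 were lower and 1 higher, with a median of -0.78, and after thinning to 1000 UMIs 10 were lower. Ccr7, which leads naive cells to lymph nodes, had 186 against 697 CPM in the library labelled Pdcd1 cKO and 261 against 383 CPM in the other. Lef1, a transcription factor of naive T cells, had 140.4 against 421 CPM and 342 against 378.5 CPM. Actn1, an actin crosslinker, had 49.2 against 182 CPM. The gene that went up was Ms4a4b, a membrane adaptor of memory and naive cells, with 717 against 268 CPM.

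Transcription factors and cytokine receptors differed gene by gene. Hopx, a homeodomain cofactor, had 70.2 CPM in members labelled Pdcd1 cKO and 10.05 CPM in comparators, and 89.7 against 12.1 CPM in the library labelled Pdcd1fl/fl. Bhlhe40, a repressor linked to tissue residency, had 231 against 45.9 CPM and 97.8 against 38.3 CPM, and Runx2 had 69.5 against 16.2 CPM and 48.9 against 14.8 CPM. Of these only Bhlhe40 reached 50 UMIs in the library labelled Pdcd1fl/fl, where Hopx had 11 and 18 UMIs and Runx2 had 6 and 22. Of 26 fate transcription factor genes 6 were higher and 5 lower, with a median near 0 (-0.00), and with the label Pdcd1fl/fl 0 of 16 were higher and 3 lower, where 21.2% of all genes were lower. Id3, an inhibitor of E proteins, was the lowest, with 29.7 against 86.3 CPM. Of 22 activation transcription factor genes 4 were higher and none lower, with a median of 0.21. Of 21 cytokine receptor genes 6 were higher and 3 lower: Il10ra had 47.0 against 8.44 CPM, and Il2rb, the chain that binds IL-15, 249 against 65.5 CPM.

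Single adhesion genes differed in either direction. Cd44, the hyaluronan receptor of memory cells, had 94.8 against 21.7 CPM in the library labelled Pdcd1 cKO and 106 against 18.8 CPM in the other, and Itga1, a collagen receptor chain, 38.4 against 9.75 CPM. Itgae, the CD103 chain that binds E-cadherin, had 20.3 against 95.1 CPM, so members held less of that mark of epithelial residency. Of 18 integrin and adhesion genes 5 were higher and 2 lower, with a median of 0.81, where 3.59% of all genes were higher and 7.93% lower. Of 27 T cell receptor signaling genes 5 were higher, led by Rgs16 and Rgs1, regulators of G protein signals with 94.8 against 18.3 CPM and 680.2 against 190.0 CPM, and 1 was lower. Of 14 chemokine and cytokine genes 7 were higher and 1 lower, and of 14 Bcl2 family genes 4 were higher. With the label Pdcd1 cKO, glycolysis and actin genes stayed within 2-fold, 0 of 17 and 0 of 27, with medians of -0.02 and 0.20. With the label Pdcd1fl/fl, 1 of 13 glycolysis genes was higher and 5 lower, with a median of -0.70, and 2 of 25 actin genes were higher. Over all genes of that library 2.84% were higher and 21.2% lower, with a median of -0.35, and the difference from these lists was not tested.

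The groups left over were smaller or mixed, and are given for the library labelled Pdcd1 cKO. Over all genes of that library 3.59% were at least 2-fold higher in members and 7.93% lower, and the difference from these lists was not tested. None of 14 CD8 T cell identity genes differed 2-fold, with a median of 0.07, and Cd8a and Cd8b1, which selected all cells compared, are among them. Of 8 SLAM family genes 2 were higher and 2 lower, and Slamf1, a receptor of early T cells, had 2.17 against 17.5 CPM. Of 12 costimulation genes 1 was higher, the tetraspanin Cd82 with 209.9 against 87.1 CPM, and 3 were lower, among them the tetraspanin Cd81 with 1.45 against 13.98 CPM. Of 23 MHC class I genes 1 was higher, of 8 GIMAP genes 2 were higher, and of 26 cell cycle genes, the cycling genes of the rule among them, 1 was lower. With the label Pdcd1fl/fl 10 of 23 cell cycle genes were lower, with a median of -0.94, where 21.2% of all genes were lower. Of 14 dissociation stress genes 3 were higher, Ier3 most, with 60.1 against 9.75 CPM, and the list median was 0.21. Of 8 agonist-selected and innate-like genes 2 were higher and 2 lower. Trgc2, a gamma chain constant region, had 118 against 63.6 CPM, but was found after thinning in 13.3% of members and 25.2% of gauge cells.

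Several defining markers of other cell types were absent from members labelled Pdcd1 cKO. Of 13 B cell genes 6 had 0 UMIs, Ms4a1 and Pax5 among them, the sum was 68.0 against 107 CPM, and Ighm was the most abundant. Igkc, an immunoglobulin light chain in that list, was higher in members, with 18.1 against 4.37 CPM, a log2 ratio of 2.05. Of 18 macrophage and dendritic cell genes 9 had 0 UMIs, Lyz2 and Csf1r among them, the sum was 212 against 272 CPM, and Ctss, a protease that T cells also make, was the most abundant. Of 14 stromal genes 6 had 0 UMIs and the sum was 57.9 against 108.5 CPM, with Pecam1 the most abundant. Of 9 CD4 and regulatory T genes Foxp3 had 0 UMIs and the sum was 88.3 against 156 CPM. Erythroid genes summed to 10.1 against 9.75 CPM. The NK cell list went the other way, with a sum of 478 against 177 CPM, of which Gzma made 307 CPM in members. Of its 11 genes 3 had 0 UMIs, Klrb1c, Klra4 and Cma1. Of 3 NK cell genes that passed 2 were at least 2-fold higher and 0 lower, with a median log2 ratio of 1.99. Klre1 was the highest of them, at 3.22. Whether any single member belongs to one of these types was not tested.

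Among members labelled Pdcd1 cKO, Ly6c2, a surface protein of memory CD8 T cells, split the cells into unlike parts. This split was chosen after the values were seen and was not tested. Ly6c2 was found in 101 of 249 members, 40.6% (34.4 to 46.9), and in 28 of 32 members labelled Pdcd1fl/fl, 87.5% (71.0 to 96.5). In comparators the shares were 24.1% and 33.1%. Most positive members held several molecules: in the library labelled Pdcd1 cKO 17 cells had 1 or 2 UMIs, 36 had 3 to 9 and 48 had 10 or more. The positive cells were deeper, with a median of 6853 UMIs against 4010.5 in the negative cells, and held less Ccl5, a median of 34 against 46 UMIs. After thinning to 1000 UMIs, 27.3% and 68.8% of members were positive. With members chosen by Ccl5 at least 0.3% of UMIs, the Ly6c2-positive percent of members was 36.7% and 88.1%. Ribosomal protein genes made up 43.4% of UMIs in positive and 33.4% in negative members.

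The effector-like genes lay mainly with the Ly6c2-negative members. Pdcd1 was found in 49 of 148 negative and 4 of 101 positive members, at 110.2 and 6.78 CPM, and Gzmk in 91 and 10 members, at 234 and 28.5 CPM. Lag3, an inhibitory receptor, had 80.7 and 2.71 CPM. Of 3282 genes that passed, 345 (10.5%) were at least 2-fold higher in negative members and 54 (1.65%) at least 2-fold lower, with a median log2 ratio of 0.34. Rgs16 had 195.5 CPM in negative and 6.78 CPM in positive members, a ratio of 4.85. The transcription factor gene Maf had 154 and 12.2 CPM, Litaf, a regulator of endosomal sorting, 199 and 20.3 CPM, and Osgin1 94.7 and 6.78 CPM. Gzma had 601 and 50.2 CPM, and Gm49313, without a known function, 206 and 24.4 CPM. Spsb1, an adaptor of ubiquitin ligases, had the largest ratio, 4.91, but 77.9% of its member UMIs came from 1 cell.

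Further genes followed the same division. Ptprj, a receptor phosphatase, had 90.0 CPM in negative and 4.07 CPM in positive members, and Car2, a carbonic anhydrase, 91.6 and 8.13 CPM. Chst12, a sulfotransferase, had 86.9 and 9.49 CPM, Chn2, a Rac regulator, 83.8 and 9.49 CPM, and Adgrg1, the adhesion receptor GPR56, 80.7 and 9.49 CPM. The next genes were chosen after the values were seen and do not stand for their lists. Of 14 integrin and adhesion genes 2 were at least 2-fold higher in negative members and none lower. Of 26 T cell receptor signaling genes 4 were higher and 2 lower. Over all genes that passed 10.5% were higher and 1.65% lower, and the difference from these lists was not tested. Tox had 518 and 94.9 CPM, Nr4a2 253 and 43.4 CPM, Bhlhe40 408 and 75.9 CPM, and the integrin chain Itga4 268 and 44.7 CPM. S100a4 was higher in negative members by a log2 ratio of 1.81, with 804 and 229 CPM, so both parts held it above the comparators.

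Several naive and egress genes were higher in Ly6c2-positive members. Of 14 genes of that list that passed, 7 were at least 2-fold lower in negative members and none higher, with a median of -0.92. Gzmm, a granzyme, had 142 CPM in positive and 17.1 CPM in negative members, and 346 CPM in positive members labelled Pdcd1fl/fl. S1pr1, the exit receptor of the thymus, had 216 and 35.7 CPM, Ccr7 302 and 52.8 CPM, and Klf2, which drives S1pr1, 420.3 and 102 CPM. Klf2 was found in 78 of 101 positive and 44 of 148 negative members. Jaml, an adhesion molecule, had 81.3 and 9.31 CPM, Ms4a4c 115 and 17.1 CPM, and Dapl1, a gene of naive and memory CD8 T cells, 97.6 and 15.5 CPM. The kinase gene Map3k8 had 102 and 26.4 CPM, Rgs10 209 and 51.2 CPM, the diacylglycerol kinase gene Dgka 86.8 and 24.8 CPM, and Arhgef12, a guanine nucleotide exchange factor, 75.9 and 17.1 CPM. Gm20186 and Gm48228, without known functions, had 63.7 and 15.5 CPM and 127 and 32.6 CPM, and Cramp1, a chromatin gene, 61.0 and 17.1 CPM, with 55.4% of its member UMIs in 1 cell. Klra7, an inhibitory Ly49 receptor, was found in 19 positive members and 1 negative member.

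Most genes that passed did not differ 2-fold across the split, and the examples given here were chosen after the values were seen. Il2rb had 247 CPM in negative and 251 CPM in positive members, Klrd1 213 and 230.5 CPM, Hopx 72.9 and 67.8 CPM, and the chemokine gene Xcl1 144 and 163 CPM. Ccr9 and Igfbp4 were low in each, with 12.4 and 16.3 CPM and with 6.21 and 6.78 CPM. In members labelled Pdcd1fl/fl that held Ly6c2 the first of these had similar levels, Il2rb 200.4, Klrd1 182, Hopx 82.0 and Xcl1 146 CPM. As the plot of both parts shows, these cells lay nearer to the Ly6c2-positive than to the Ly6c2-negative members labelled Pdcd1 cKO for most of the genes drawn that differed between the parts. They did not equal them, with S100a4 at 27.3 against 229 CPM, Tox at 18.2 against 94.9 CPM and Nr4a2 at 9.11 against 43.4 CPM.

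**Figure D3:**
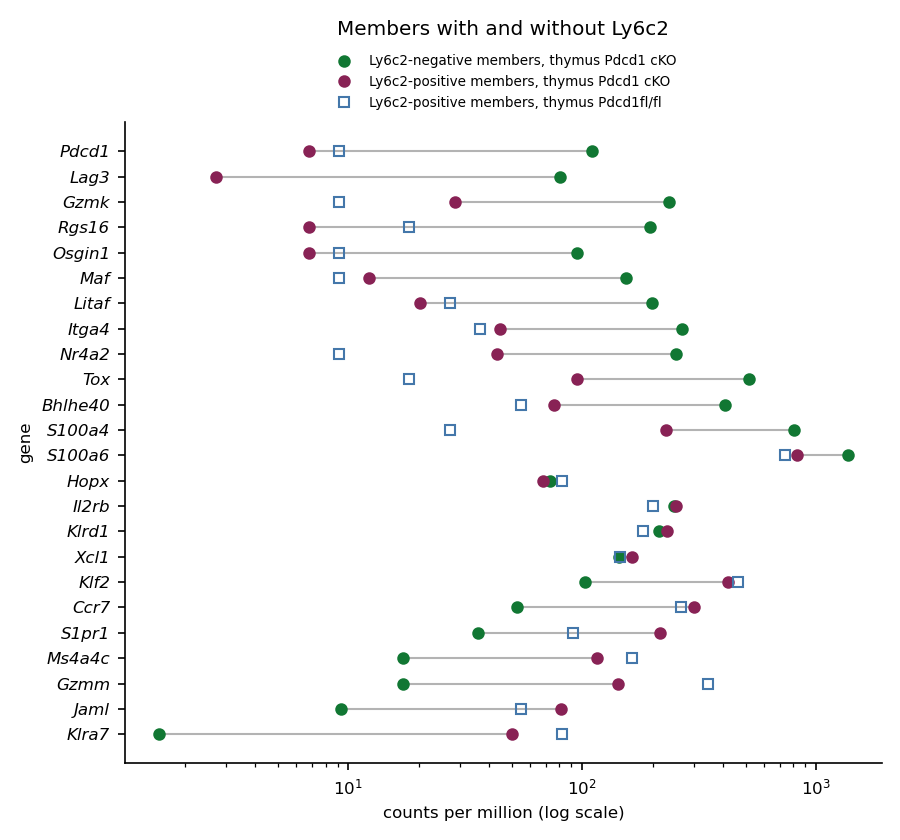
CPM of selected genes in Ly6c2-negative and Ly6c2-positive members labelled Pdcd1 cKO and in Ly6c2-positive members labelled Pdcd1fl/fl. A gene with 0 UMIs in a group has no mark for it.

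The rule was met in every library, and in each tissue more often in the library labelled Pdcd1 cKO. In spleen it took 93 of 1478 filtered cells labelled Pdcd1fl/fl, 6.29%, and 1596 of 4928 labelled Pdcd1 cKO, 32.4%, and in tumor 18 of 456, 3.95%, and 134 of 561, 23.9%. Depth differed widely, with median UMIs of 1796 and 1955.5 in these spleen cells and 8850.5 and 8045.5 in these tumor cells. Of 7204 genes compared between thymus and spleen in the libraries labelled Pdcd1 cKO, 273 (3.79%) were at least 2-fold higher in thymus and 512 (7.11%) lower, with a median of -0.10. S100a4 had 497 CPM in thymus, 78.1 CPM in spleen and 2239 CPM in tumor. The tumor cells also held RNA that thymic members nearly lacked, Cd74 at 2191 CPM and S100a1 at 398 CPM, and free RNA was not measured there. In the same order Tox had 292, 83.8 and 42.9 CPM. Klrc1 was alike, with 43.4, 48.2 and 54.4 CPM.

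**Figure D4:**
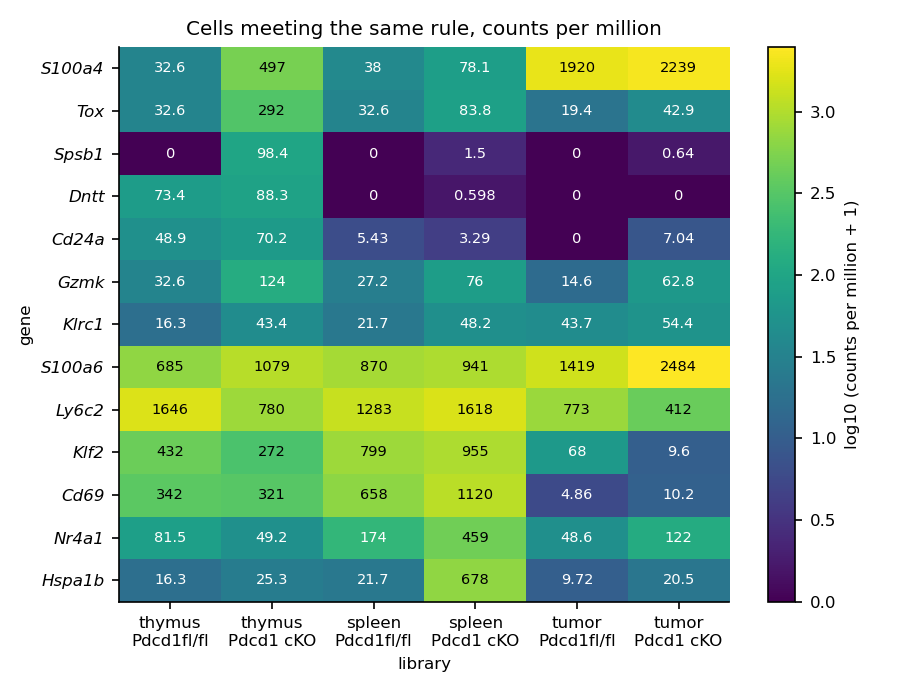
CPM in the cells of each library that met the same rule, for genes that differed between tissues and for some that did not.

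Several thymocyte genes were among the largest ratios of thymic members over splenic cells of the same rule, in the libraries labelled Pdcd1 cKO. Of 6 immature thymocyte genes that passed, 2 were at least 2-fold higher in thymus and 0 lower, with a median log2 ratio of 0.10. The genes given next thus do not stand for that list. Dntt had 88.3 CPM in thymus and 0.598 CPM in spleen, a log2 ratio of 7.20, and Ly6d, a gene of early lymphocytes, 156 and 3.29 CPM. Cd24a had 70.2 and 3.29 CPM, the Notch target Hes1 60.8 and 2.99 CPM, the transcription factor gene Sox4 42.7 and 2.69 CPM, and the myosin light chain gene Myl10 40.5 and 0.598 CPM. These genes were higher still in the gauge cells, Dntt at 765 and Hes1 at 900.4 CPM. As the gauge cells were chosen by Dntt, they do not give the level of free RNA for thymocyte genes. How much of this RNA in members was free RNA was not tested. Spsb1 and Sema6d, each with most UMIs in 1 cell, had 98.4 and 1.496 CPM and 88.3 and 4.19 CPM, and 2610307P16Rik had 31.8 and 2.09 CPM. Gm50021, without a known function, had 887 and 19.4 CPM in the libraries labelled Pdcd1 cKO but only 57.1 CPM in thymic members labelled Pdcd1fl/fl. In the libraries labelled Pdcd1 cKO, 9 of 14 dissociation stress genes were at least 2-fold lower in thymic members than in splenic cells, and 0 were higher. Of 21 activation transcription factor genes 10 were lower and 1 higher, where 7.11% of all genes were lower and 3.79% higher. Hspa1b, a heat shock gene, had 25.3 CPM in thymus and 678 CPM in spleen, Nr4a1 49.2 and 459 CPM, Zfp36 60.8 and 510 CPM, and Egr1 27.5 and 164 CPM. For Hspa1b the difference was not seen with the label Pdcd1fl/fl, with 16.3 and 21.7 CPM from 2 and 4 UMIs. The early response genes were lower in thymus there too: Nr4a1 had 81.5 and 173.9 CPM, Zfp36 81.5 and 179 CPM, and Egr1 32.6 and 125 CPM. With the label Pdcd1 cKO, Hspa1a, Dnajb1 and Klf10 had the same order, as had the immunoglobulin gene Igkc with 18.1 and 461 CPM. Trim58, a ubiquitin ligase, had 5.07 and 90.1 CPM, and Fmn1, a formin, 12.3 and 63.7 CPM.

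Promoters of genes that were highest together in members are printed because they show the sequence before their starts. Windows of 250 bases before the canonical start were read from GRCm39 with GENCODE vM39 for 21770 protein-coding genes and searched on both strands for GGTGTGA (T-box), TGTGGT (Runx), GGGANTTCC (NF-kB), TGANTCA (AP-1) and CACGTG (E-box). Among all these promoters 3.23%, 13.02%, 1.38%, 6.17% and 6.26% held a match, in that order. Among 302 promoters of genes at least 2-fold higher in members labelled Pdcd1 cKO the shares were 3.31%, 17.9%, 2.65%, 9.60% and 6.62%. For 8627 genes with enough UMIs they were 2.87%, 11.5%, 1.54%, 4.08% and 8.38%, and no difference was tested. Shown are 4 of the highest named genes whose window met no annotated exon, and 3 that met one were passed over. Capitals mark matches, all of them of the Runx letters and none overlapping, and a match is only a match of letters. Klrc1 lies at chr6:129655937-129656186 on the minus strand, Camk2n1 at chr4:138181157-138181406 on the plus strand, S100a6 at chr3:90519890-90520139 on the plus strand and Cxcr6 at chr9:123635284-123635533 on the plus strand.
Klrc1: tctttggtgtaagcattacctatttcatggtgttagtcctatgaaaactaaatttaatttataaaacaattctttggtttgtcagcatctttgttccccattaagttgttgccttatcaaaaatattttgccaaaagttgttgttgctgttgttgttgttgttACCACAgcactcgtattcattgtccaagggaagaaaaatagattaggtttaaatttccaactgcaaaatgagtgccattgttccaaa
Camk2n1: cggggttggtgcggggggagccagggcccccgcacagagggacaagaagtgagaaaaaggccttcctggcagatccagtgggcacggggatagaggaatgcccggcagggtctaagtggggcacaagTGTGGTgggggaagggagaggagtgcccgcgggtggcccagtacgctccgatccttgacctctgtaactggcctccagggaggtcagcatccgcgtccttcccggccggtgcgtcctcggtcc
S100a6: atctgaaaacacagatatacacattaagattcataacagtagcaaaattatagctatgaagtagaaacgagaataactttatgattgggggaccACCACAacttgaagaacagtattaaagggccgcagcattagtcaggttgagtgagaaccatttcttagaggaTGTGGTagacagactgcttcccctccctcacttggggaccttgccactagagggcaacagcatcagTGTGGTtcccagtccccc
Cxcr6: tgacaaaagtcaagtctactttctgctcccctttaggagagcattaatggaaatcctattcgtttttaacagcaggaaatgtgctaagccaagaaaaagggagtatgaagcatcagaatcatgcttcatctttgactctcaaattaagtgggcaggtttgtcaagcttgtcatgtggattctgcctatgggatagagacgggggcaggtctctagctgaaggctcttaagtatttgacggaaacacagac
S100a6 held 3 matches in this window, Klrc1 and Camk2n1 held 1 each, and Cxcr6 held none.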

How the data were processed

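The counts were raw UMI counts of genes by barcodes as deposited by the authors, who aligned reads to GRCm39 with the PIPseq pipeline and used Seurat 4.3.0. They were read without further correction. Cells were filtered and chosen by the rule given above, and the members and gene lists were chosen with earlier results of these data known. For each set of cells the UMIs were added up per gene and divided by their total, to give CPM. Ratios have exact conditional binomial intervals, levels exact Poisson intervals and shares Clopper-Pearson intervals. Where a side was 0, a floor of 3 counts gave a bound, and no ratio was formed when both sides lay under it.

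Named genes were Pdcd1, the rule genes, the markers, and the 15 largest and 15 smallest ratios in the library labelled Pdcd1 cKO. These needed at least 50 UMIs and a UMI in at least 10% of cells of the higher side, with 0.5 counts added for ranking, and left out rule, mitochondrial, known effector and known inhibitory genes. The same rule took the genes of the Ly6c2 comparison, and 10 on each side for spleen, without leaving out the known lists. Results for some of these genes are not reported here. Of the 31 lists the counts or summed levels are given, with the ends and the most abundant genes for some of them. Thinning drew UMIs without replacement with a fixed seed. The ratio code was tested on simulated data, and the thinning code was checked on some members for the UMI total left per cell. Python 3.11.15, numpy 2.4.6, scipy 1.17.1, pandas 2.3.3 and matplotlib 3.10.9 were used.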

Additional observations from a re-analysis of the deposited data

Results flagged for a closer look

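Gzma was the only gene among those named or listed that was called 2-fold in opposite directions in the thymus libraries with both intervals clear of 0. Its log2 ratio of members over comparators was 1.99 in the library labelled Pdcd1 cKO and -1.69 in the library labelled Pdcd1fl/fl. Members held 307 and 89.7 CPM and comparators 77.2 and 289.8 CPM, in that order. In the library labelled Pdcd1 cKO 19.1% of its member UMIs came from 1 cell. For Ly6c2-positive members alone of that library the log2 ratio was -0.62, the direction seen in the other library, where 87.5% of members were Ly6c2-positive against 40.6%. The difference was not tested.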

How the results depend on the processing

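No paired analysis was possible because each tissue and genotype was 1 library. Each member set is thus 1 mouse, the cut is in raw UMIs that depend on depth, free RNA was not removed, no doublet caller was run, and 3' counts do not show whether the floxed exons were read. Of 5985 gene ratios under other settings, over 428 genes, 5010 lay within the counting interval of the main ratio and 961 outside it. A further 14, all at least 2-fold in the main setting, changed sign. Sign changes of smaller ratios were not counted apart.

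Shares of filtered cells moved with the rule. In the thymus library labelled Pdcd1fl/fl members were 4.59% with Ccl5 at least 10, 1.97% at least 20, 0.469% at least 30, and 1.59% with CD8 at least 3. In the thymus library labelled Pdcd1 cKO they were 6.60% with Ccl5 at least 30 and 7.44% with CD8 at least 3. With Ccl5 at least 10 and at 0.3% of UMIs, the spleen shares were 14.5% and 26.7% labelled Pdcd1fl/fl, and 40.7% and 51.6% labelled Pdcd1 cKO. The tumor shares were 7.46% and 0.877%, and 29.4% and 14.4%. Ly6c2-positive members were 68.8% labelled Pdcd1fl/fl and 27.3% labelled Pdcd1 cKO after thinning.

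In the library labelled Pdcd1 cKO, thinning to 1000 UMIs gave 710 genes higher and 1199 lower. A limit of 20 UMIs gave 561 and 1256, and of 200 UMIs 95 and 166. The lower genes were 369 with CD8 at least 3, 467 against comparators with Ccl5 at 0, 323 against those without Dntt, Rag1 and Rag2, and 273 against mature ones. Ly6c2-negative members alone gave 567 higher, and Ly6c2-positive ones 173 higher and 1409 lower.

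Sign changes are given only for genes whose ratio was at least 2-fold in the main setting. Log2 ratios changed sign for Cd24a to 0.16, Il2ra to 0.13, Trdc to 0.10 and Dcn to 0.66 against mature comparators. They did so for Il2ra to 0.01 without Dntt, Rag1 and Rag2, Xaf1 to 0.10 after thinning, and Dcn to 0.48 with CD8 at least 3. Ly6c2-positive members alone had Gzma -0.62, Tnfsf10 -0.03, Rgs16 -1.44, Maf -1.23 and Litaf -0.21. Ly6c2-negative members alone had Klra3 -1.17 and Klra7 -2.42.

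Among lists, immature genes lower were 2 with CD8 at least 3, without Dntt, Rag1 and Rag2, and against mature comparators, the latter choices using genes of that list. Naive and egress genes lower were 10 after thinning and 14 in Ly6c2-negative members. Chemokine receptors higher were 3 at 200 UMIs and 4 in Ly6c2-positive members. Killer lectin-like receptors higher were 4 with CD8 at least 3, 2 at 200 UMIs and 4 in Ly6c2-negative members. CD8 identity genes higher were 1 by the median of ratios and 2 in Ly6c2-negative members.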

Other observations

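Mitochondrial genes made up 3.51% of the UMIs of members labelled Pdcd1 cKO and 4.26% of those of their comparators, and 3.81% and 4.32% in the library labelled Pdcd1fl/fl. Ribosomal protein genes made up 38.8% and 38.0%, and 35.0% and 28.0%. Malat1 made up 0.209% and 0.199%, and 0.174% and 0.202%. Median genes per member were 1677 and 1318.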
